A study of Mus musculus with 28 samples.

Results

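The genes described here encode proteins that write, erase or read marks on chromatin or move nucleosomes. They were chosen by name in the table of single cells: members of the Kdm, Setd, Hdac, Dnmt, Tet, Ezh, Chd, Smarc and Brd families. The pattern found 78 entries with 77 symbols among the 37974 genes of that table. Of these, 70 were also listed for the tissue, 65 of them passed the filter on low values there, and 73 of the 78 counted as expressed in the cells, against 12287 of 36358 genes tested in the tissue and 11332 of 37974 expressed in the cells. A pattern on Kmt was part of the choice but found no entry, because that table lists the Kmt2 genes under older symbols. They were followed separately by identifier.

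Histone methyltransferases and demethylases add and remove methyl groups on histone tails, and histone deacetylases remove acetyl groups and mostly act in repressive complexes. Dnmt enzymes methylate cytosine in DNA and Tet enzymes oxidise the methyl group. The CHD and SMARC remodelers use ATP to slide or evict nucleosomes, and bromodomain proteins bind acetylated histones. In the subependymal and subventricular zone, the main neurogenic niche of the adult forebrain, Ezh2 and the Polycomb complexes, the Brg1-associated (BAF) complexes and Hdac2 are known as regulators of the passage from neural stem cell to neuroblast.

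RNA had been sequenced from the lateral ventricle wall over the striatum (EZ-SEZ/SVZ) of C57BL/6 mice, with 3 samples of 18 months and 3 of 3 weeks, and from 22 single cells of the same region picked by hand and amplified with Smart-seq2, a full-length protocol for single cells. The cells carried the labels Prom1+ (3 of 1 month and 3 of 24 months), Gfap+ (2 and 5) and Dlx2+/Dcx+ (5 and 4). Neither sex nor the animal of a cell is used here, and the labels do not say whether tissue samples came from separate animals, so that p-values measure the spread between these samples. All values are FPKM (fragments scaled to transcript length and to the mapped fragments of the sample), and read counts and sequencing depth were not used here.

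The defining markers were read in every cell before any comparison. Prom1, a surface glycoprotein of ependymal and neural stem cells, was between 1.49 and 56.6 FPKM in the 6 Prom1+ cells, at most 0.452 in the Gfap+ cells and up to 6.29 in the Dlx2+/Dcx+ cells, of which 2 were above 1 FPKM, so that it did not part the Prom1+ from all other cells. Gfap, an intermediate filament of astrocytes and neural stem cells, was between 48.7 and 194 FPKM in the 7 Gfap+ cells and 0 in every Prom1+ cell. Dlx2 and Dcx, a transcription factor and a microtubule protein of the neuroblast lineage, were at least 269.6 and 15.8 FPKM in the 9 Dlx2+/Dcx+ cells. The Gfap+ cells also held between 7 and 9 of 9 oligodendrocyte markers, with a summed level of 30371 to 65195 FPKM, against 8.16 to 187 FPKM in the Prom1+ and 5.90 to 347 FPKM in the Dlx2+/Dcx+ cells. Mbp, a main myelin protein, reached a median of 9063 FPKM in them, while the 5 astrocyte markers summed to between 0 and 124 FPKM. The label Gfap+ is therefore used here for cells that carry Gfap together with a myelin programme, and no contrast with them can be told apart from a contrast with oligodendrocyte markers. The 12 dividing cell markers summed to 1260.3 to 6209.7 FPKM in Prom1+ cells, 2259 to 5065 in Dlx2+/Dcx+ cells and 30.3 to 373 in Gfap+ cells.

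Sequences before a RefSeq start are shown first for 4 members. The members were chosen from the 6 that parted the Prom1+ from the Gfap+ cells without overlap. These 4 had the 2 largest differences in each direction, Hdac2 and Ezh2 being higher and Hdac11 and Hdac5 lower in Prom1+ cells. Each line gives the longest stretch, within the 250 bases before the RefSeq start of GRCm38.p6, that lies in no exon of the GENCODE annotation, 5′ to 3′ on the gene's strand, with every CpG in capitals. The Ezh2 stretch is chr6:47595059-47595183 on the minus strand, that of Hdac2 chr10:36974294-36974543 on the plus strand, that of Hdac11 chr6:91156565-91156664 on the plus strand and that of Hdac5 chr11:102230173-102230422 on the minus strand. The Ezh2 stretch lies inside the annotated gene, whose 5′ end is at 47595341, and so is not sequence upstream of the whole gene.
Ezh2: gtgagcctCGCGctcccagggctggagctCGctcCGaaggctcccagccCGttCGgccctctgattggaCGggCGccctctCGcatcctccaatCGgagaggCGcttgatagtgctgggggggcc
Hdac2: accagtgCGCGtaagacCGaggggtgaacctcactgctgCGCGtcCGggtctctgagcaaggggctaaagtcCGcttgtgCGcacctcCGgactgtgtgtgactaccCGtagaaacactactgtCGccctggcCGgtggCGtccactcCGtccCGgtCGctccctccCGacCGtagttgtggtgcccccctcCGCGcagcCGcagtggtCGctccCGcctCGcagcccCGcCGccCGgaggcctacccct
Hdac11: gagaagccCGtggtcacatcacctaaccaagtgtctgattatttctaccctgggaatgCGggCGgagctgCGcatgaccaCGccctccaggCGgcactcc
Hdac5: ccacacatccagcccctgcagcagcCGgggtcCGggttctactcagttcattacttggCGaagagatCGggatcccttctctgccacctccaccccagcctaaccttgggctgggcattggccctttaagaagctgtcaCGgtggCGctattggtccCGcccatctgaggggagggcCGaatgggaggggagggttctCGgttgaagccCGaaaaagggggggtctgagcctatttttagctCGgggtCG
Within these stretches, 27 CpG stood in the 250 bases of Hdac2, 12 in the same length of Hdac5, 11 in the 125 bases of Ezh2 and 6 in the 100 bases of Hdac11. Promoter windows of 250 bases were matched by symbol for 61 of the 78 entries. At least 1 window had a GC content above 50% and an observed over expected CpG ratio above 0.6 in 50 of these 61 genes (82.0%), against 71.3% of the genes expressed in the cells and 33.2% of all genes with a window. The 8-base forms TTTCCCGC, TTTGGCGC, TTTCGCGC and TTTGCCGC of the E2F motif, searched on both strands, stood in a window of Brd7, Dnmt1 and Smarcd1. That was 3.45% of the members' windows, against 3.43% of the windows of genes expressed in the cells, and none of the 4 stretches printed holds one.

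In the tissue, 2 of the 65 tested members had an adjusted p under 0.05 between the ages in limma. Neither call held in every fit that left out 1 sample. Ezh2, the catalytic methyltransferase of Polycomb repressive complex 2, fell, and Kdm3a, a demethylase of histone H3 lysine 9, rose. The other 63 did not pass the adjusted threshold, and 56 of the 65 had a log2 fold change within 0.5 of 0. Differences are given as the older minus the younger age in log2(FPKM + 1), fitted with limma over all 12287 genes and adjusted by Benjamini-Hochberg. One member (1.54%) had an adjusted p under 0.05 in each direction, against 2.42% of all genes that were lower and 2.51% that were higher at 18 months. At the limits the study's methods used, an unadjusted p under 0.05 and a log2 change above 1, limma called 1 member lower and 0 higher, against 2.07% and 1.83% of all genes. At an unadjusted p under 0.05 alone 10 members were lower (15.4% of 65) and 5 higher (7.69%), against 8.93% and 15.4% of all genes. The ages did not overlap for 12 members lower at 18 months (18.5%) and for 6 higher (9.23%), against 12.2% and 20.9% of all genes. The median over the 65 members was -0.003, with 32 above and 33 below 0, and that over all tested genes was 0.09.

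**Figure D1:**
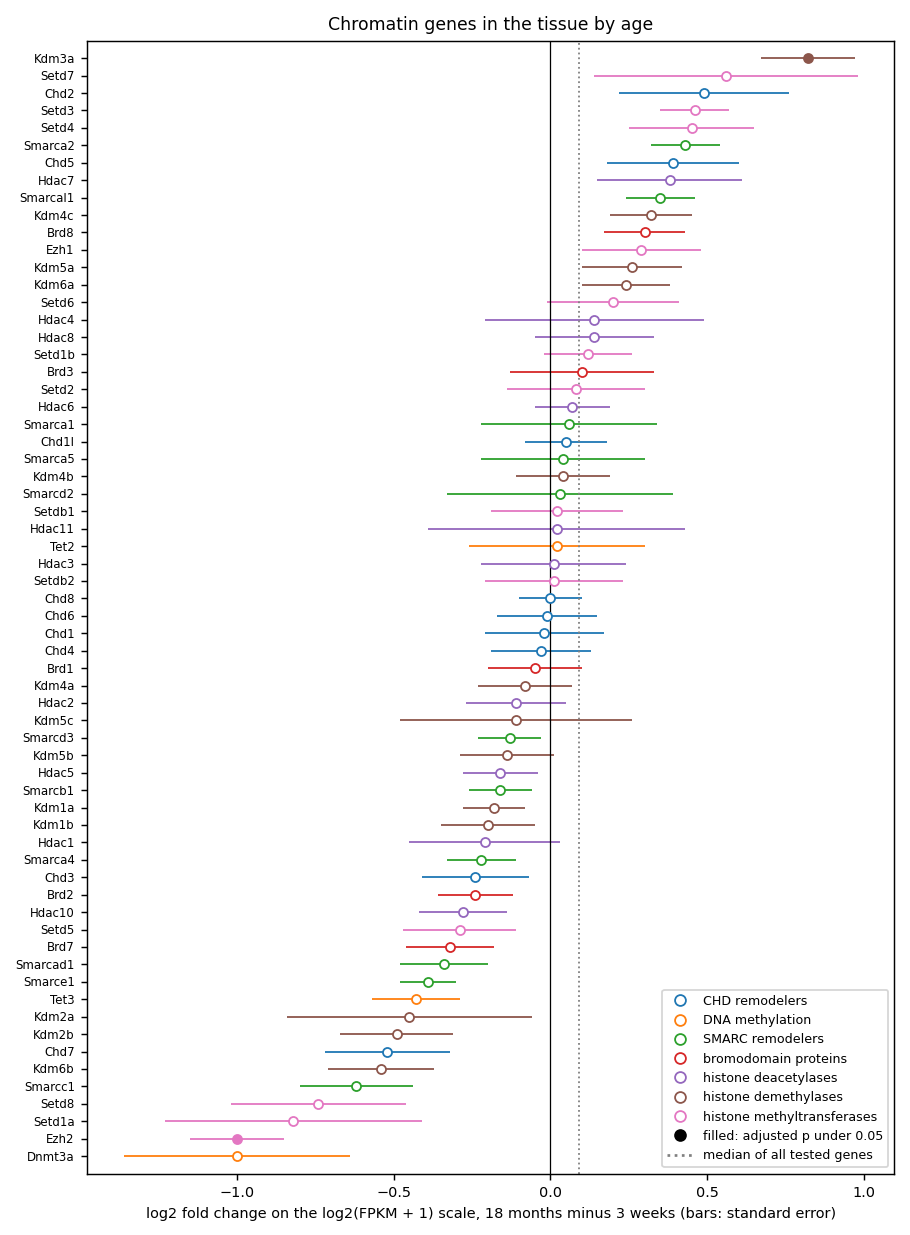
Log2 fold change (18 months minus 3 weeks, horizontal axis, on the log2(FPKM + 1) scale) of 64 of the 65 tested members with standard errors, ordered by size and coloured by family. Only Ezh2 at -1.0 and Kdm3a at 0.82 are filled (adjusted p under 0.05), and the dotted line marks the median of all tested genes at 0.09.

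Ezh2, on chromosome 6 of GRCm38 from 47530139 to 47595341, was at 7.18, 9.35 and 7.48 FPKM at 18 months and at 19.0, 15.9 and 16 FPKM at 3 weeks. Every sample of 18 months lay below every sample of 3 weeks, with means of 8.0 ± 1.18 and 17.0 ± 1.78 FPKM (SD, n = 3 each). The log2 fold change was -1.0 (standard error 0.15), and limma gave an adjusted p of 0.0247 (Benjamini-Hochberg). The call held without sample 1 or 2 of 18 months, and was lost without sample 3 of 18 months or without any sample of 3 weeks, where limma's adjusted p lay between 0.0795 and 0.0903. Dividing cell markers moved with it: 8 of the 10 tested markers fell, none rose, and their summed level was 66.6 to 80.9 FPKM at 18 months and 137 to 148 FPKM at 3 weeks. Of the 5 tested neuroblast markers 4 fell, among them Dcx and Dlx2, and of 7 tested oligodendrocyte markers 6 fell, with sums of 3571 to 4235 FPKM and 19253 to 21336 FPKM. The part of these cells in the Ezh2 result was not tested, and in tissue fewer cells of a type and less RNA per cell cannot be told apart.

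Kdm3a, on chromosome 6 from 71588972 to 71632990, was at 22.9, 22.6 and 28.8 FPKM at 18 months and at 14.1, 11.8 and 14.7 FPKM at 3 weeks. The ages did not overlap, and the means were 24.8 ± 3.47 and 13.5 ± 1.55 FPKM (SD, n = 3 each). The log2 fold change was 0.82 (standard error 0.15), and limma gave an adjusted p of 0.0416 (Benjamini-Hochberg). This call was lost when any of the 6 samples was left out (adjusted p between 0.0563 and 0.140 from limma), and without the filter on low values (adjusted p = 0.0642). In the cells, Kdm3a was scattered from 0 to 189.6 FPKM and the ages overlapped in all 3 subpopulations.

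No other methyltransferase among the 13 tested members passed the adjusted threshold. Ezh1, the second catalytic subunit of the same Polycomb complex, was at 13.4, 18.0 and 21.1 FPKM at 18 months and at 12.4, 13.6 and 15.8 FPKM at 3 weeks, a log2 difference of 0.29 (standard error 0.19). Its ages overlapped. Setd3, an actin histidine methyltransferase that is also named a histone methyltransferase, was at 47.9, 54.8 and 54.1 FPKM at 18 months and at 39.9, 38.8 and 34.4 FPKM at 3 weeks, without overlap, and missed the threshold at an adjusted p of 0.0790 in limma. Setd8, also named Kmt5a and the enzyme of histone H4 lysine 20 monomethylation, had a difference of -0.74 with a standard error of 0.28. Setdb1, which methylates histone H3 lysine 9, differed by 0.02 (standard error 0.21). Over the 13 methyltransferases tested the median was 0.08.

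Among DNA methylation genes, Dnmt3a, a de novo methyltransferase, had the same estimate as Ezh2 with a wider error. It was at 5.97, 5.70 and 1.89 FPKM at 18 months and at 9.45, 9.46 and 8.86 FPKM at 3 weeks. The ages did not overlap, but sample 3 of 18 months lay far below the other two, and the difference of -1.0 (standard error 0.36) had an adjusted p of 0.168 in limma. Without that sample it was -0.58 (adjusted p = 0.101 in limma). Tet3 differed by -0.43 (standard error 0.14) with ages that did not overlap, and Tet2 by 0.02 (standard error 0.28). Dnmt3b, Tet1 and Dnmt3l stayed below the filter, at no more than 0.364, 1.05 and 0.0324 FPKM. Dnmt1, the maintenance methyltransferase, was not analysed in the tissue, and neither were Hdac9, Smarcd1, Smarcc2, Kdm3b, Chd9, Brd9 and the second Hdac4 entry.

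SMARC genes, most of which encode ATPases and subunits of the BAF and ISWI remodelers, had a median of -0.13 over 11 tested members. Smarca2, the Brm ATPase, was at 47.8, 44.2 and 49.2 FPKM at 18 months and at 36.3, 36.4 and 31.5 FPKM at 3 weeks, without overlap. Smarca4, the alternative Brg1 ATPase, was at 34.5, 33.2 and 33.9 FPKM at 18 months and at 43.8, 38.3 and 36.9 FPKM at 3 weeks, also without overlap and in the other direction. Neither passed, with a difference of 0.43 (standard error 0.11) and an adjusted p of 0.0863 for Smarca2, and -0.22 (standard error 0.11) and an adjusted p of 0.268 for Smarca4, both from limma. The core subunits Smarce1 and Smarcc1 were lower at 18 months in every sample, by -0.39 (standard error 0.09) and -0.62 (standard error 0.18), with adjusted p of 0.0790 and 0.121 in limma. Smarcd3, a subunit of neuronal and muscle BAF, was the most abundant subunit at 92.8 ± 6.44 and 102 ± 4.71 FPKM (SD, n = 3 each) and overlapped between ages. Smarca5, the ISWI ATPase, differed by 0.04 (standard error 0.26).

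**Figure D2:**
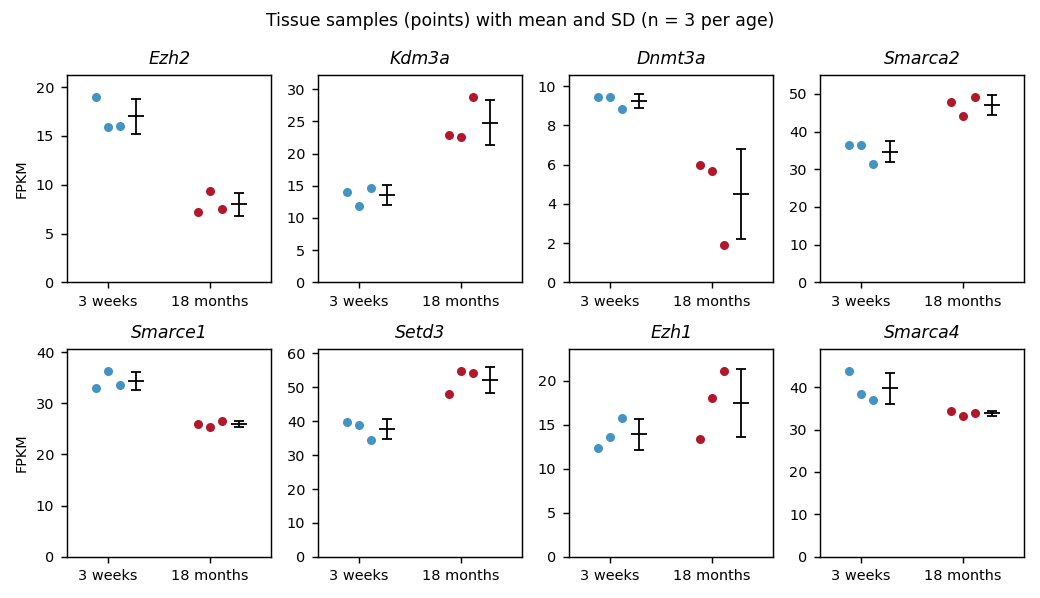
FPKM of 8 members in each tissue sample (points) at 3 weeks and 18 months, with mean and SD of 3 samples beside them and each vertical axis starting at 0. Ezh2 and Kdm3a are parted by age in opposite directions, Dnmt3a shows its low sample of 1.89 FPKM, and Smarca2 and Smarca4 are parted in opposite directions without passing the adjusted threshold.

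No deacetylase passed in the tissue: the differences of the 10 tested ran from -0.28 to 0.38 and none had an unadjusted p under 0.05 in limma. Hdac11, the class IV deacetylase, was at 39.5, 40.0 and 49.9 FPKM at 18 months and at 21.8, 52.5 and 65.1 FPKM at 3 weeks, so its 3 week samples spanned its older ones. Hdac2 differed by -0.11 (standard error 0.16), Hdac1 by -0.21 (standard error 0.24) and Hdac3 by 0.01 (standard error 0.23). The CHD remodelers had a median of -0.01 over 9 genes. Chd7, a remodeler known for its role in adult neural stem cells, differed by -0.52 (standard error 0.20), Chd3 by -0.24 (standard error 0.17), Chd4, the main ATPase of the nucleosome remodeling and deacetylase (NuRD) complex, by -0.03 (standard error 0.16) and Chd5, a neuronal remodeler, by 0.39 (standard error 0.21). Bromodomain proteins had a median of -0.02 over 6 genes, with Brd2 at -0.24 (standard error 0.12). Of the other demethylases, Kdm6b, which removes the mark that Ezh2 writes, was lower at 18 months in every sample, at 8.72, 6.74 and 7.31 FPKM against 9.86, 11.0 and 13.7 FPKM, a difference of -0.54 (standard error 0.17) with an adjusted p of 0.129 in limma. Kdm6a, which removes the same mark, differed by 0.24 (standard error 0.14) and Kdm1a by -0.18 (standard error 0.10).

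Partners of these enzymes, and related chromatin genes that are not members, were read from lists chosen by knowledge of the complexes. Of the 115 tested on them, 2 rose (1.74%, against 2.51% of all genes) and 1 fell (0.870%, against 2.42%) at the adjusted threshold in limma. Uhrf1, which guides Dnmt1 to hemimethylated DNA, fell by 1.46 on the log2 scale (standard error 0.17), from 8.29, 6.60 and 9.55 FPKM at 3 weeks to 1.94, 2.34 and 2.63 FPKM at 18 months. Cbx6, a chromobox subunit of Polycomb repressive complex 1, rose by 2.10 (standard error 0.27), from 12.9, 7.53 and 15.5 FPKM to 54.6, 58.4 and 45.6 FPKM. Smyd5, a SET and MYND domain methyltransferase, rose by 0.84 (standard error 0.15), from 12.5, 10.1 and 14.3 FPKM to 21.9, 24.6 and 21.3 FPKM. None of the 7 Polycomb repressive complex 2 partners passed (median 0.26), nor the 16 BAF partners (median -0.14), the 17 partners of NuRD, Sin3, CoREST and NCoR (median -0.25), the 9 of COMPASS (median -0.21), the 9 histone acetyltransferases (median -0.10) or the 11 other remodelers (median 0.00). The 16 Polycomb repressive complex 1 partners had a median of 0.01, the 14 other methyltransferases 0.06 and the 9 DNA methylation partners 0.16. The 7 relatives under older symbols had a median of 0.00 and all overlapped between ages, with Kmt2a at -0.17 (standard error 0.45) and Kmt2d at -0.49 (standard error 0.23).

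In single cells members were detected unevenly. Only Smarcb1, a BAF core subunit, and Kdm2a, a histone H3 lysine 36 demethylase, were above 1 FPKM in all 22 cells, and 10 members were in at least 20 cells. Dnmt3a was above 1 FPKM in 21 cells, Brd2 in 21 and Dnmt1 in 20. Chd5, Dnmt3b, Dnmt3l, Kdm4d and Kdm5d, the last on chromosome Y, were above 1 FPKM in none of the 22 cells. Chd5 was listed at 0 in all of them while the tissue held 6.23 to 11.1 FPKM. Smarcd3, near 100 FPKM in the tissue, was above 1 FPKM in 3 of 22 cells. Of the 73 expressed members a Prom1+ cell had 45 to 52 above 1 FPKM, a Dlx2+/Dcx+ cell 41 to 55 and a Gfap+ cell 30 to 48, and the count of all genes above 1 FPKM was 5645 to 6240, 4855 to 6055 and 4188 to 5741. No animal is named for a cell, so each subpopulation at each age is 1 sample. Cell values are described with no test, and a difference counts as past the limit when the mean log2(FPKM + 1) differs by more than 1.

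**Figure D3:**
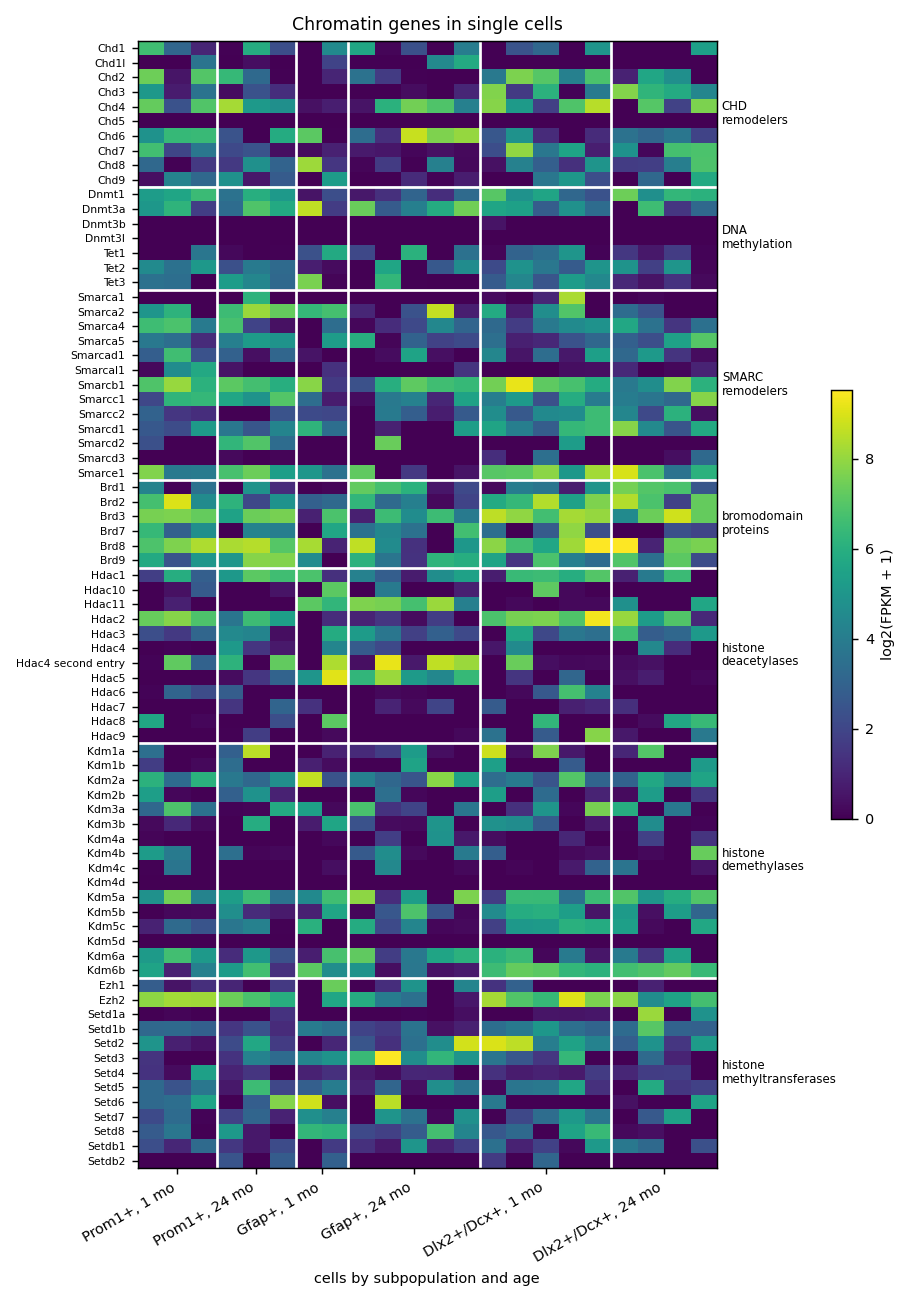
Log2(FPKM + 1) of 77 of the 78 entries (rows, by family) in 22 cells (columns, by subpopulation and age), from dark at 0 to bright. The rows of Smarcb1 and Kdm2a are lit in every cell, those of Hdac11 and Hdac5 mainly in the 7 Gfap+ cells, and those of Hdac2 and Ezh2 mainly in the Prom1+ and Dlx2+/Dcx+ cells.

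Between subpopulations, Hdac2, Ezh2 and Dnmt1 were higher in Prom1+ than in Gfap+ cells, and Hdac11, Hdac5 and Setd3 lower, without overlap. Most counts of members lay near or under the share over all genes. Between Prom1+ and Gfap+ cells, 13 of 73 members were higher in Prom1+ at both ages (17.8%, against 19.1% of all expressed genes) and 6 lower (8.22%, against 12.5%). Between Dlx2+/Dcx+ and Gfap+ cells, 18 were higher in Dlx2+/Dcx+ at both ages (24.7%, against 14.8%) and 9 lower (12.3%, against 14.1%). Between Dlx2+/Dcx+ and Prom1+ cells 4 were higher (5.48%, against 5.82%) and 4 lower (5.48%, against 11.0%). The count higher was 2 without Prom1+ cell 3 of 24 months, and 7 without Prom1+ cell 2 or Dlx2+/Dcx+ cell 2 of 24 months, without Prom1+ cell 1 of 1 month, with a pseudocount of 0.1 or with medians. Both contrasts with Gfap+ cells share those 7 cells. All Prom1+ cells lay above all Gfap+ cells for Dnmt1, Ezh2 and Hdac2, 3 members or 4.11% against 1.91% of genes, and below for Hdac11, Hdac5 and Setd3, 4.11% against 2.53%. Every Dlx2+/Dcx+ cell lay above every Gfap+ cell for 0 members against 1.01% of genes, and below for Hdac5 alone, 1.37% against 2.06%.

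Hdac2, a class I deacetylase of the Sin3, NuRD and CoREST complexes, was far lower in Gfap+ cells than in the others. Its lowest, median and highest values were 12.1, 103 and 224 FPKM in Prom1+ cells, 1.15, 123 and 656 FPKM in Dlx2+/Dcx+ cells and 0, 0.947 and 2.35 FPKM in Gfap+ cells. Prom1+ and Gfap+ cells did not overlap, and 1 Dlx2+/Dcx+ cell of 24 months, at 1.15 FPKM, lay within the Gfap+ range. The log2 difference from Gfap+ cells was 6.72 at 1 month and 4.30 at 24 months for Prom1+ cells, and 7.06 and 4.45 for Dlx2+/Dcx+ cells. Hdac1, its paralog, had medians of 46.6, 60.5 and 17.3 FPKM in Prom1+, Dlx2+/Dcx+ and Gfap+ cells with overlap throughout, and Hdac3 medians of 5.91, 10 and 6.56 FPKM.

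Ezh2 ran from 61.8 over 202 to 297 FPKM in Prom1+ cells (lowest, median, highest), from 23.6 over 123 to 539 FPKM in Dlx2+/Dcx+ cells and from 0 over 10.5 to 57.9 FPKM in Gfap+ cells. The log2 difference from Gfap+ cells was 5.29 and 3.93 at 1 and 24 months for Prom1+ cells and 4.85 and 3.37 for Dlx2+/Dcx+ cells. The differences at 1 month rested on 2 Gfap+ cells at 0 and 48.2 FPKM: without the first they were 2.48 and 2.04, and without the second 8.10 and 7.66. Ezh1 had medians of 1.21, 0 and 1.37 FPKM in Prom1+, Dlx2+/Dcx+ and Gfap+ cells, and was lower in Dlx2+/Dcx+ than in Gfap+ cells by -2.79 at 1 month, a direction that turned to 0.87 without Gfap+ cell 2. Dnmt1 had lowest, median and highest values of 11.0, 42.3 and 89.6 FPKM in Prom1+ cells, 4.24, 46.1 and 171 FPKM in Dlx2+/Dcx+ cells and 0.417, 1.48 and 8.86 FPKM in Gfap+ cells. Its partner Uhrf1 lay between 6.83 and 259.7 FPKM in both of these subpopulations, and its highest Gfap+ value was 0.520 FPKM. Ezh2, Dnmt1 and Uhrf1 moved with the dividing cell markers given above, and the part of cycling in them was not tested. Among those markers the Gfap+ level varied. Mcm6, a helicase subunit, had medians of 74.4, 84.4 and 0.150 FPKM in Prom1+, Dlx2+/Dcx+ and Gfap+ cells, and Pcna of 389.6, 748 and 15.1 FPKM.

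Among further members higher outside the Gfap+ cells, Chd3, a NuRD ATPase, reached a median of 55.5 FPKM in Dlx2+/Dcx+ cells and at most 1.02 FPKM in a Gfap+ cell. Chd7 had a median of 28.3 FPKM in Dlx2+/Dcx+ cells and stayed at or below 0.846 FPKM in every Gfap+ cell. Both genes overlapped with the Gfap+ cells. For Chd3 and Chd7, the lowest Dlx2+/Dcx+ values were 0.0657 and 0.115 FPKM, and the lowest Prom1+ values 0.245 and 0.280 FPKM. Smarcc1, a BAF core subunit, had medians of 61.8, 15.1 and 9.68 FPKM in Prom1+, Dlx2+/Dcx+ and Gfap+ cells, and differed from Gfap+ cells by 2.79 and 2.85 at the 2 ages for Prom1+ cells, the first of which ranged from 1.45 without Gfap+ cell 2 to 4.22 without Prom1+ cell 1. Brd8, a subunit of the Tip60 acetyltransferase complex, had medians of 263, 194 and 22.9 FPKM, but its difference of 3.02 between Prom1+ and Gfap+ cells at 1 month became -0.63 without cell 2 of the Gfap+ cells. Smarca4 had medians of 53.5, 11.0 and 3.29 FPKM. Its difference between Prom1+ and Gfap+ cells was 4.06 at 1 month and 0.84 at 24 months. Smarca2, with medians of 81.4, 4.38 and 4.27 FPKM, was not higher throughout. It differed from Gfap+ cells by -2.83 at 1 month and 4.72 at 24 months in Prom1+ cells. In Dlx2+/Dcx+ cells its differences were -2.89 and -1.12.

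Hdac11 and Hdac5, a class IIa deacetylase, had the reverse pattern. Hdac11 had lowest, median and highest values of 16.3, 137 and 272 FPKM in Gfap+ cells, 0, 0 and 0.767 FPKM in Prom1+ cells and 0, 0.146 and 49.1 FPKM in Dlx2+/Dcx+ cells. The 2 Dlx2+/Dcx+ cells that held it, at 26.6 and 49.1 FPKM, were both of 24 months. The difference of Prom1+ from Gfap+ cells was -6.41 at 1 month and -6.83 at 24 months. Hdac5 ran from 20.3 over 75.4 to 549.9 FPKM in Gfap+ cells, reached at most 7.24 FPKM in Prom1+ and 7.79 FPKM in Dlx2+/Dcx+ cells, and was the only expressed member whose Gfap+ cells overlapped with neither other subpopulation. Setd3 had medians of 29.4, 1.67 and 1.87 FPKM in Gfap+, Prom1+ and Dlx2+/Dcx+ cells, and Setd8 of 19.2, 3.13 and 0.295 FPKM. Tet1 had medians of 4.17, 0.0352 and 1.92 FPKM in that order. Setd3 reached 80.1 FPKM in a Dlx2+/Dcx+ cell of 1 month, above its lowest Gfap+ value of 19.4 FPKM. For Setd8 and Tet1, Gfap+ cells overlapped with both other subpopulations. Setd8 was as low as 2.46 FPKM in a Gfap+ cell and reached 84.7 FPKM in a Dlx2+/Dcx+ cell. The Setd8 difference of Prom1+ from Gfap+ cells at 24 months, -1.63, ranged from -3.24 to -0.67 when 1 cell was left out. The second Hdac4 entry, which has no counterpart in the annotation used, had medians of 270.1, 38.7 and 0.182 FPKM, and its difference between Dlx2+/Dcx+ and Gfap+ cells at 1 month turned from -2.55 to 1.63 without cell 2 of the Gfap+ cells. Myelin genes moved with this group as given above, and their part was not tested.

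Differences between Dlx2+/Dcx+ and Prom1+ cells often rested on 1 cell. Kdm6b stayed within 67.9 to 155 FPKM over the 9 Dlx2+/Dcx+ cells, against 0.830 to 98.5 FPKM in Prom1+ cells, a difference of 3.16 at 1 month and 2.40 at 24 months, which were 1.85 without Prom1+ cell 2 of 1 month and 0.86 without Prom1+ cell 3 of 24 months. Smarcc2, a BAF core subunit that can replace Smarcc1, had a median of 22.1 FPKM in Dlx2+/Dcx+ cells and 1.63 FPKM in Prom1+ cells, with differences of 2.67 and 2.44 (1.48 at 24 months without Dlx2+/Dcx+ cell 3). Smarcd1, another BAF subunit, had medians of 46.0 and 9.0 FPKM, and Kdm5b, a histone H3 lysine 4 demethylase, of 35.2 and 0.396 FPKM. At 24 months their differences of 1.59 and 1.30 fell under the limit of 1 when 1 cell was left out, to 0.71 for Smarcd1 without Dlx2+/Dcx+ cell 1, and for Kdm5b to 0.55 and 0.79 without Prom1+ cell 3 or 2 and to 0.70 and 0.73 without Dlx2+/Dcx+ cell 3 or 1. In the other direction Setd6, Chd1, Brd7 and the second Hdac4 entry were lower in Dlx2+/Dcx+ cells. Of these, Setd6 (0.07 without cell 3 of 24 months), Chd1 (0.05 without cell 1 of 1 month and 0.17 without cell 2 of 24 months) and the second Hdac4 entry (0.09 without cell 2 of 1 month) lost the direction at an age when 1 Prom1+ cell was left out. Brd7 had differences of -1.39 and -1.72, of which the first was -0.53 without Prom1+ cell 1 and -0.57 without Dlx2+/Dcx+ cell 2 of 1 month, and the second -0.97 without Prom1+ cell 2 of 24 months.

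Between ages, Prom1+ cells held 20 of 73 members past the limit and higher at 24 months (27.4%, against 22% of all expressed genes) and 23 lower (31.5%, against 24.0%). Past the limit and without overlap of the 3 cells of each age were 6 higher (8.22%, against 3.32%) and 4 lower (5.48%, against 3.68%). The median difference over the members was -0.10, beside 0.00 over all genes. Lower at 24 months were Kdm6a, Hdac2, Setd1b and Ezh2, and higher were Smarcd2, Smarca2, Hdac4 (the annotated entry), Kdm5b, Smarca5 and Hdac5.

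Ezh2 was at 237, 297 and 290.0 FPKM in the Prom1+ cells of 1 month and at 166, 111 and 61.8 FPKM in those of 24 months, a log2 difference of -1.38. Hdac2 was at 157, 224 and 115 FPKM at 1 month and at 12.1, 91.6 and 40.7 FPKM at 24 months, a difference of -2.12 (-1.37 without the older cell at 12.1 FPKM). Kdm6a was at 35.5, 99.7 and 34.5 FPKM at 1 month and at 1.29, 32.4 and 4.13 FPKM at 24 months, a difference of -2.79. For these 3 genes every younger cell lay above every older cell, by little for Kdm6a at 34.5 against 32.4 FPKM. Setd1b, a histone H3 lysine 4 methyltransferase, was at 8.40, 8.59 and 6.49 FPKM and then at 1.83, 4.34 and 1.26 FPKM. Dividing cell markers summed to 2441 to 6209.7 FPKM in the Prom1+ cells of 1 month and to 1260.3 to 2824 FPKM in those of 24 months, and their part was not tested.

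Smarca2 was at 29.9, 71.2 and 0 FPKM in the Prom1+ cells of 1 month and at 91.7, 269 and 153 FPKM in those of 24 months, a difference of 3.59 that was 1.73 without the younger cell at 0. Smarcd2, a BAF subunit, was at 4.0, 0 and 0 FPKM and then at 75.8, 121 and 9.30 FPKM, a difference of 4.74. Every older cell lay above the younger ones for both genes, with the lowest older Smarcd2 value, 9.30 FPKM, near the highest younger one. Kdm5b and Hdac4 were each below 0.2 FPKM in the younger cells and above 1 FPKM in only 2 of 3 older cells, at 24.9 and 1.26 FPKM for Kdm5b and at 34.5 and 1.75 FPKM for Hdac4. Without the older cell that held the highest value of each, their differences of 2.05 and 2.39 were 0.80 and 1.02. The second Hdac4 entry was at 0.0678, 146 and 6.92 FPKM in the younger and 70.4, 0 and 152 FPKM in the older cells. Its ages overlapped. Hdac5 was listed at 0 in the 3 younger cells and reached 0.232, 1.86 and 7.24 FPKM in the older ones. Smarca5 was at 12.9, 9.89 and 1.23 FPKM and then at 16.3, 36.5 and 28.6 FPKM.

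**Figure D4:**
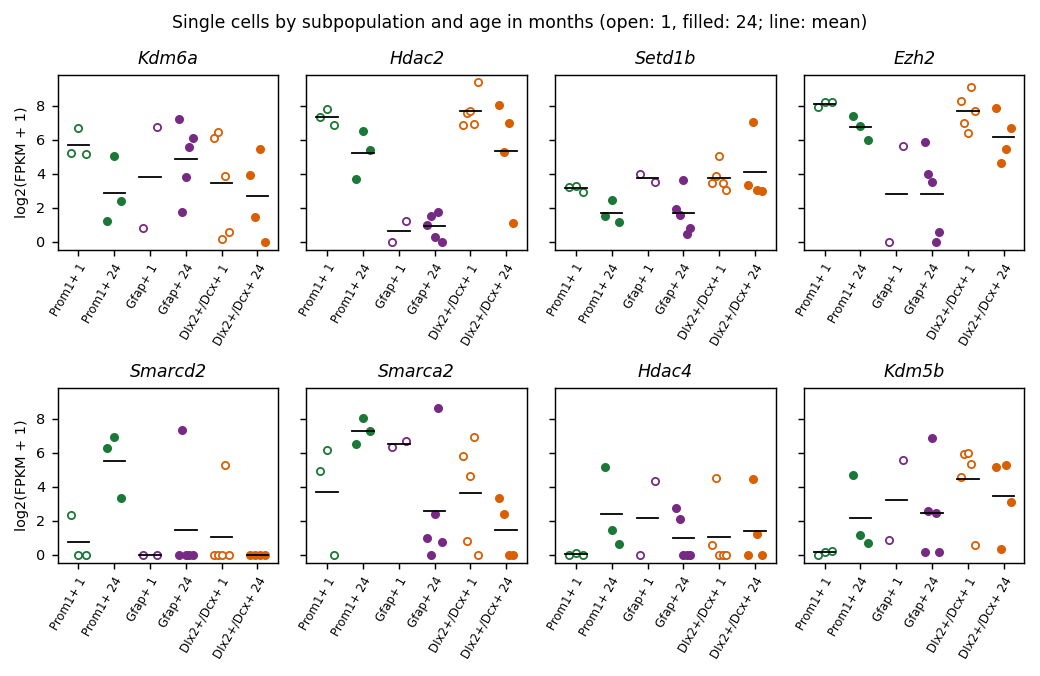
Log2(FPKM + 1) of the 8 members named first by age in Prom1+ cells, in every cell by subpopulation and age in months (open points 1, filled points 24, lines the mean of a group). In Prom1+ cells the upper 4 genes are lower and the lower 4 higher at 24 months without overlap, while the ages of each of the 8 overlap in Gfap+ and Dlx2+/Dcx+ cells. Hdac4 is the annotated entry, and the ages of the second Hdac4 entry, which is not drawn here, overlap in Prom1+ cells.

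In Gfap+ cells 15 members were past the limit and higher at 24 months (20.5%, against 29.6% of all expressed genes) and 20 lower (27.4%, against 19.6%), and the median difference was 0.00, beside 0.16 over all genes. Only 2 cells of 1 month were at hand, and without cell 2 of them 25 members were higher. Brd1 and Setd2 were higher without overlap (2 members or 2.74%, against 2.56% of genes), and 0 members were lower without overlap, against 2.79%. Brd1, a scaffold of histone acetyltransferase complexes, was at 0 and 0.0974 FPKM at 1 month and at 149, 103, 66.9, 0.504 and 3.30 FPKM at 24 months. Setd2, the histone H3 lysine 36 methyltransferase, was at 0 and 1.05 FPKM and then at 4.72, 1.52, 10.6, 24.4 and 470.5 FPKM, so that 1 cell set its highest value.

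In Dlx2+/Dcx+ cells 11 members were past the limit and higher at 24 months (15.1%, against 16.6%) and 25 lower (34.2%, against 27.1%), with a median difference of -0.62, beside -0.14 over all genes. Without overlap 0 members were higher, against 0.529% of genes, and 1 was lower (1.37%, against 1.05%). That member was Tet3, at 5.67, 19.8, 4.64, 37.1 and 20.6 FPKM at 1 month and at 1.06, 0.420, 1.62 and 0.173 FPKM at 24 months, a difference of -3.07. Every older cell lay below the younger ones. Ezh2 was at 302, 123, 83.1, 539 and 201 FPKM at 1 month and at 231, 23.6, 43.4 and 102 FPKM at 24 months, with overlap and a difference of -1.51, and Hdac2 differed by -2.31 with overlap. Setd8 differed by -3.41, from at most 84.7 FPKM at 1 month to at most 0.295 FPKM at 24 months, with 1 younger cell at 0. The members counted 45 to 55 above 1 FPKM in the younger and 41 to 44 in the older Dlx2+/Dcx+ cells, while all genes counted 5093 to 6055 and 4855 to 5063.

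The further members named here overlapped between ages in each subpopulation. Tet2 had medians of 12.3, 0.760 and 12.6 FPKM in Prom1+, Gfap+ and Dlx2+/Dcx+ cells, Dnmt3a of 43.0, 56.6 and 9.31 FPKM, Kdm1a of 3.25, 0.899 and 0.511 FPKM and Setdb1 of 2.73, 1.52 and 3.95 FPKM. Smarce1 had medians of 73.7, 2.0 and 133 FPKM, Chd4 of 78.1, 16.7 and 118 FPKM and Brd2 of 49.1, 8.64 and 113 FPKM. Hdac9, a class IIa deacetylase, passed 1 FPKM in 4 Dlx2+/Dcx+ cells (highest 219.7 FPKM) and in 1 Prom1+ cell (2.36 FPKM), and reached at most 0.175 FPKM in Gfap+ cells. Of the relatives under older symbols, Kmt2d, which methylates enhancers at histone H3 lysine 4, was above 1 FPKM in 6 of 6, 7 of 7 and 8 of 9 cells, with medians of 22.7, 34.5 and 23.7 FPKM in Prom1+, Gfap+ and Dlx2+/Dcx+ cells, and Kmt2a was in 4 of 6, 6 of 7 and 7 of 9 cells.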

How the data were processed

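FPKM values per gene were deposited for 6 tissue samples and 22 single cells. According to the labels and the study's methods, the authors aligned reads to GRCm38, and the submitters' processing notes name HISAT2, StringTie and featureCounts, with versions not given in the sources used here. Read counts were not used here. Tissue values were fitted as log2(FPKM + 1) with limma 3.58.1 in R 4.3.3 (trended empirical Bayes, age as the only term) over genes at 1 FPKM or more in at least 3 of 6 samples. On simulated data, 34% of genes changed by 1 and 75.5% of those changed by 2 on the log2 scale were recovered among 12287 genes. Cells were described with no test, and a gene counted as expressed above 1 FPKM in at least 3 of 22 cells. Tables were made with Python 3.11.15 and pandas 2.3.3. Named members were the tissue calls (up to 12 per direction), up to 4 per direction and subpopulation past 1 without overlap of ages (Smarca5 and Hdac5, the members beyond these in Prom1+ cells, were named after their values were seen), up to 5 per direction and pair of subpopulations by the smaller of the differences at both ages, and a fixed list of well-known enzymes. Genes given to describe detection, the next tissue members and markers were also named after their values were seen. Members and lists were chosen with earlier results of these data known. Promoters came from RefSeq (GRCm38.p6). The values of 1 member are not reported here, and it is left out of the figures.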

Additional observations from a re-analysis of the deposited data

How the results depend on the processing

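The tissue calls were few and moved with the fit. With the replicate number as a block (replicate block), 0 members were lower and 0 higher at an adjusted p under 0.05 in limma, although the numbers did not pair the samples (correlations of same-numbered deviations -0.096, -0.011 and -0.098). Leaving out 1 sample gave 0 to 2 members lower and 0 higher, and without the filter on low values 0 were higher. At the study's limits 2 members were lower with a pseudocount of 0.1, with TPM scaling and with quantile normalization, and 0 to 3 when 1 sample was left out. The median over members ranged from -0.114 to 0.025 over these omissions. The count higher in Dlx2+/Dcx+ than in Prom1+ cells was 7 with a pseudocount of 0.1 and 7 with medians, and 2 to 7 when 1 cell was left out, and that of members higher at 24 months in Gfap+ cells was 13 to 25.

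Directions between subpopulations turned in 7 cases, each when 1 cell was left out. The range was -0.63 to 6.68 for Brd8 (Prom1+ minus Gfap+, 1 month), -6.73 to 1.63 for the second Hdac4 entry and -6.46 to 0.87 for Ezh1 (Dlx2+/Dcx+ minus Gfap+, 1 month). For Dlx2+/Dcx+ minus Prom1+ it was -3.46 to 0.09 for the second Hdac4 entry and -2.75 to 0.05 for Chd1 at 1 month, and -2.76 to 0.17 for Chd1 and -3.81 to 0.07 for Setd6 at 24 months. The cause was not tested.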
